A study of Mus musculus with 8 samples.

Results

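The myosin heavy and light chain genes of heart muscle were followed in single myocardial cells of mouse embryos with and without Sox17 in the mesoderm. The 7 genes were Myh6, Myh7, Myl2, Myl3, Myl4, Myl7 and Myl9, chosen by name out of 24335 gene names on the array, and every probe that carried one of these names was taken, which gave 8 of 55681 probes. Each array held the amplified cDNA of 1 cell from the heart tube at embryonic day 8.5 and the stage of 9 somites. The 4 control cells (WT) came from Mesp1+/+ Sox17flox/flox embryos and the 4 knockout cells (KO) from Mesp1Cre/+ Sox17flox/flox embryos, so that the floxed Sox17 alleles were present in both groups and Cre, with 1 altered Mesp1 allele, only in KO. Mesp1 is switched on in the early mesoderm, so Cre acts in the whole cardiac lineage and not in myocardial cells alone. The study's methods place the dissected cells in the ventricle and state that the cell type was assigned by PCR of marker genes. The labels named no embryo or litter for any cell, so each genotype counted as 1 sample of cells, no test was made, and each SD is the spread between cells and not the error of a genotype mean.

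Myosin II is the motor of the thick filament. A pair of heavy chains carries the motor heads and the rod, and each head binds an essential and a regulatory light chain, of which the regulatory chain is the one phosphorylated by myosin light chain kinases. Adult mouse chambers use different chains, with Myl2 and Myl3 as the ventricular and Myl7 and Myl4 as the atrial regulatory and essential light chains, whereas the early heart tube transcribes genes of both sets. Myh6 (alpha heavy chain) and Myh7 (beta heavy chain) lie next to each other on 1 chromosome, and Myl9 encodes the regulatory chain of smooth muscle and nonmuscle myosin.

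All 7 genes had a probe well above background in all 8 cells, and each of these 7 probes was among the brightest 531 of the 5301 probes detected in all 8 cells. By mean log2 signal, 6 of the 7 were higher in KO and 1, Myh7, was lower. Of the 6, Myh6 was higher by only 0.01 and was lower in KO under the other 6 scalings, and Myl4 was lower under some of them. A probe counted as present when all 4 cells of at least 1 genotype had it well above background. No member differed 5-fold, the size the study used for its gene lists. Over the 7467 present probes, 6.88% passed this size towards lower signal in KO and 1.75% towards higher signal, and over the brightest 531 probes the shares were 0% and 0.377%. Myl3, Myl7 and Myl9 were at least 2-fold higher in KO, that is 3 of 7 members, a share that was 11.4% for present probes and 6.78% for the brightest 531. The 4 KO cells all lay above the 4 WT cells for 2 members, Myl7 and Myl9, which held for 3.27% of present probes and 4.9% of the brightest 531. No member was 2-fold lower (16.3% of present probes, 0.942% of the brightest 531), and none had all KO cells below all WT cells (2.26% and 0%). The median difference over the 7 genes was 0.50 on the log2 scale, beside 0.15 over the 5301 probes detected in all 8 cells and 0.10 over the brightest 531. Set against the 0.15 of the detected probes, 5 of the 7 members lay above and Myh6 and Myh7 below. The order of the medians turned with quantile normalization, at 0.26 for the members and 0.32 for the 5301 probes, and with normexp and quantile normalization, at 0.24 and 0.41. With either, 3 of the 7 members lay above the median of the 5301 probes.

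**Figure D1:**
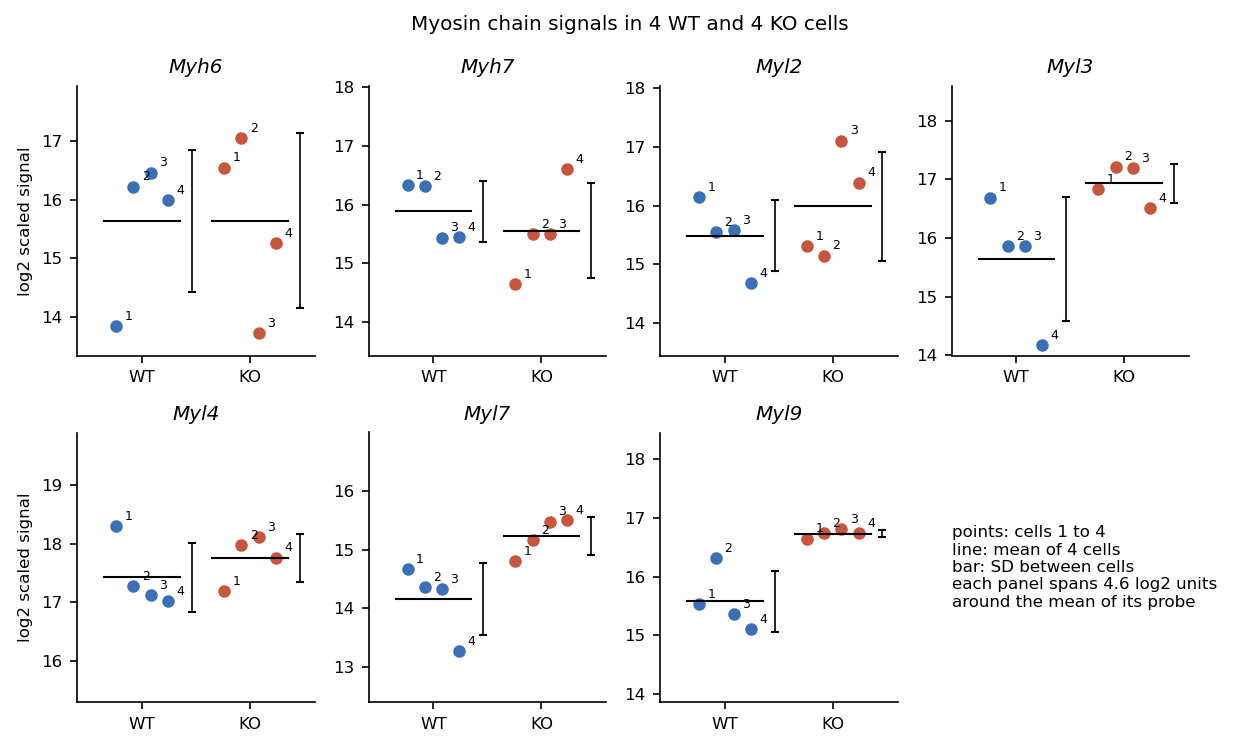
Scaled log2 signal of the brightest probe of each gene in the 4 WT and 4 KO cells, with cell numbers, the mean of 4 cells as a line and the SD between cells as a bar. The KO cells lie above all WT cells for Myl7 and Myl9, 3 of 4 do so for Myl3, and the genotypes overlap for the other genes.

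The cells carried myocardial markers, and a few genes of other cell types were read in some cells. Of 10 other myocardial genes, among them troponins, cardiac actin and Nkx2-5, 9 to 10 were detected in every cell. Of these genes, 9 were present, 7 higher and 2 lower in KO, with a median KO minus WT difference of 0.73. As for Myl7 and Myl9, all KO cells lay above all WT cells for Tpm1, at 138009 to 162631 against 72744 to 102206. For Actn2 (2.18) and Ttn (1.32) the lowest cell was WT cell 1, at the floor of the scale for Actn2 and at 251 for Ttn. The genes lower in KO were Tnnc1 and Gata4, a cardiac transcription factor gene. Gata4 differed by -3.98 with KO cells 2 and 3 at the floor of the scale. Its probe was well above background in 3 of the 4 KO cells, so the floor does not mean absence. No skeletal muscle gene of 7 was detected in any cell. Of 13 endothelial and endocardial genes, 3 to 4 were detected per WT cell and 2 to 3 per KO cell. Erythroid, endoderm, proepicardium and neural crest genes were 0 to 1 per cell, of 7, 6, 5 and 4. Endothelial Egfl7 read 3666 in WT cell 3 and 1273 in KO cell 2, with the other cells at the floor. A Kdr probe read 3230 in KO cell 2 alone, while another read 443 to 693 across the cells. Proepicardial Wt1 read 474 and 473 in WT cells 2 and 3 and was at the floor elsewhere. Whether these cells held RNA of other cell types was not tested. The 2 probes of Sox17 and the probe of Mesp1 were well above background in 0 of 8 cells of either genotype, so that the deletion could not be checked on these arrays. The WT arrays sat on 1 slide and the KO arrays on a different slide, and the effects of genotype and slide cannot be told apart. The share of probes well above background was 17.1% to 26.0% over the 8 arrays, and the lowest 2 values, 17.1% and 17.2%, were KO cells 3 and 2.

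The probes did not read the heavy chains alike. Myh6 had 2 probes, 60 bases each and 5695 bases apart on the transcript, both on the minus strand of the mm9 build that the files use. The downstream probe (chr14:55560774-55560833) begins at transcript position 6003, and the upstream probe (chr14:55584132-55584191) at position 308. Their sequences are shown because the downstream probe reaches the polyadenylation signal AATAAA, in capitals, 4 bases before its end, while the upstream probe lies near the other end of a long mRNA. The Myh7 probe (chr14:55589581-55589640, transcript position 5938) is followed at once by an unnamed probe (chr14:55589521-55589580) that holds the same signal. The last 30 bases are given for the 3 probes at transcript ends and the whole probe for the upstream one.
Myh6 upstream probe: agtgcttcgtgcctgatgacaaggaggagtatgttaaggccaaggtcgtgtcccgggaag
Myh6 downstream probe, last 30 bases: cctcgctgtggccaatacacAATAAAcata
Myh7 probe, last 30 bases: caagggtgcccgtgaagccctcagacctgg
unnamed probe beside Myh7, last 30 bases: agAATAAAgcaattttccttaaagccaaaa

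The upstream Myh6 probe was well above background in 0 of 8 cells, although the downstream probe of the same transcript was detected in all 8. All transcripts with several probes were counted, and the pairs of Myh6 and of Myh8, given below, are among those at least 4000 bases apart. Where the downstream probe was detected in all 8 cells, the share of upstream probes detected in 0 cells was 17.2% of 308 pairs less than 500 bases apart and 66.7% of 21 pairs at least 4000 bases apart. Myh8, a heavy chain gene of developing skeletal muscle, gave the same picture, with its downstream probe detected in every cell and a probe 5460 bases upstream in none. The AATAAA signal stood in 2 of the 8 member probes, Myh6 and Myl3, beside 10.1% of all probes and 14.5% of those detected in all 8 cells. Member probes were compared with each other and with probes of Myh1, Myh2, Myh3, Myh4, Myh7b, Myh8, Myh13, Myh15, Myl1, Myl6, Myl12a and Myl12b. The longest stretch shared exactly was 9 bases. Probes of other myosin genes, and matches of a probe to whole transcripts, were not compared.

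Myh6 was the gene that varied most between cells, and its genotype means were almost equal. The WT cells, in order from 1 to 4, gave scaled signals of 14695, 76447, 90265 and 65408, and the KO cells gave 95587, 135301, 13490 and 39355. WT cell 1 and KO cell 3 were low, KO cells 1 and 2 were high, and the genotypes overlapped fully. Mean log2 signals of 15.63 ± 1.21 for WT and 15.64 ± 1.49 for KO (± SD between cells, n = 4 each) left a difference of 0.01, which moved to between -0.58 and 0.65 with single cells left out, while the 8 cells spanned 3.33 log2 units. The SD over the 8 cells, 1.25, was larger than that of 96.2% of the brightest 531 probes.

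Myh7 was the only member whose mean was lower in KO. In the same order of cells, WT gave 83055, 82062, 44446 and 44601, and KO gave 25575, 46195, 46317 and 100107. The lowest and the highest of the 8 cells were both KO cells, with the WT cells in 2 pairs between them. Mean log2 signals were 15.89 ± 0.51 (WT) and 15.56 ± 0.81 (KO), a difference of -0.33, smaller than either spread between cells.

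The unnamed probe beside Myh7 repeated the order of the cells exactly. It read 127288, 121331, 64129 and 66699 for WT and 44403, 72057, 75215 and 156918 for KO. The difference between genotypes was -0.20, Pearson's r with the Myh7 probe over the 8 cells was 0.993, and the log2 ratio of the probes had an SD of 0.084 over the cells. The spread of Myh7 between cells was therefore much larger than the disagreement of neighbouring probes on the same arrays. The probe of Mhrt, a long noncoding RNA gene of this locus read from the opposite strand, was well above background in 0 of 8 cells.

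The heavy chains did not move together from cell to cell. On the log2 ratio of Myh6 to Myh7 within a cell, taken as the deviation from its mean over the 8 cells, WT cell 1 lay at -2.41 and KO cells 3 and 4 at -1.69 and -1.26, whereas KO cells 1 and 2 lay at 1.99 and 1.64. The other 3 WT cells lay between -0.01 and 1.11. Array scaling cancels in this ratio, so its spread of 1.63 (SD over 8 cells) does not come from the scaling step. Each genotype held cells on both sides of the mean, and the genotype means differed by 0.34, far less than that SD.

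The essential light chain genes Myl3 and Myl4 stood higher in KO by mean at the reported scaling, by different amounts. For Myl4 the sign depended on the scaling. Myl3, the ventricular chain (chr9:110672238-110672297, mm9), gave 105431, 59445, 59291 and 18527 for WT cells 1 to 4, against 116238, 151928, 148981 and 92970 for KO. WT cell 4 was the lowest of all and WT cell 1 lay above KO cell 4, so the genotypes overlapped by that single pair. Mean log2 signals were 15.64 ± 1.05 (WT) and 16.93 ± 0.34 (KO), a difference of 1.29 or 2.44-fold. Without WT cell 4 the difference was 0.80.

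Myl4, the atrial essential chain (chr11:104448441-104448500, mm9), was brighter in its mean signal than 99.9% of the probes detected in all 8 cells and had the smallest SD over the 8 cells among the 7 genes, 0.50, although Myl9 varied less within genotypes. The WT cells gave 322704, 157935, 142197 and 133285, and the KO cells 149178, 258445, 281827 and 221999. WT cell 1 was the highest of the 8, and the other 3 WT cells were below 3 of the 4 KO cells. Mean log2 signals were 17.43 ± 0.59 (WT) and 17.76 ± 0.41 (KO), a difference of 0.33, and the sign of this small difference depended on the scaling of the arrays, from -0.14 to 0.33 over the scalings tried.

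Within each cell, Myl4 was lower relative to Myl3 in KO. The centred log2 ratio of Myl4 to Myl3 stood at 0.31, 0.11, -0.04 and 1.54 for WT and at -0.94, -0.54, -0.38 and -0.05 for KO. All KO cells lay below all WT cells, though KO cell 4 and WT cell 3 were almost equal. The genotype means differed by -0.96, or 1.94-fold, and by -0.60 at the least when a single cell was left out. Of the 21 ratios that 7 genes allow, 3 had no overlap between genotypes, namely this one and the ratios of Myh7 to Myl7 and to Myl9, with KO minus WT differences of -1.40 and -1.48. Among the 140715 pairs of the brightest 531 probes the share without overlap, in either direction, was 3.97%. The genotypes were nearly tied in the ratio of Myh7 to Myl7, with the lowest WT cell at 0.085 and the highest KO cell at 0.082.

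**Figure D2:**
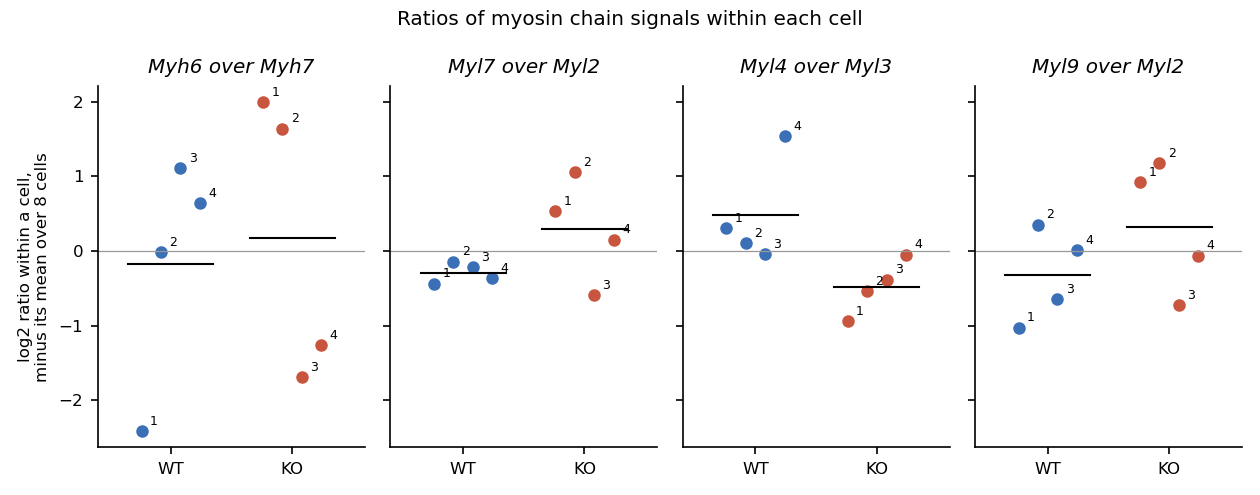
Log2 ratios of pairs of myosin chain signals within each cell, as deviations from the mean over the 8 cells, for 4 WT and 4 KO cells with the genotype mean as a line. The ratio of Myl4 to Myl3 does not overlap between genotypes, and that of Myh6 to Myh7 spreads from -2.41 to 1.99 with both genotypes on both sides of 0.

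Of the regulatory light chain genes, the atrial Myl7 and the smooth muscle type Myl9 were higher in every KO cell than in any WT cell at the reported scaling. Myl7, whose probe has no position in the files and begins at transcript position 129, gave 25941, 21121, 20543 and 9916 for WT cells 1 to 4, against 28530, 36741, 45586 and 46392 for KO. The highest WT cell and the lowest KO cell were close, at 25941 and 28530. Mean log2 signals were 14.16 ± 0.61 (WT) and 15.24 ± 0.33 (KO), a difference of 1.08 or 2.11-fold, and 0.78 without WT cell 4. The separation of all cells also held with 75th percentile scaling, while under the other 5 scalings 2 or 3 KO cells lay above all WT cells. The distance of the Myl7 probe from the 3′ end of its transcript was not looked up. Whether that distance bears on the difference was not tested.

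Myl9 (chr2:156607301-156607360, mm9) gave 47382, 81899, 42045 and 35314 for WT cells 1 to 4, against 102636, 109470, 114436 and 109830 for KO. The KO cells lay within a 1.11-fold range of each other, and the nearest WT cell, cell 2, was at 81899. Mean log2 signals were 15.58 ± 0.52 (WT) and 16.73 ± 0.065 (KO), a difference of 1.15 or 2.23-fold. Neither the separation from all WT cells nor the close agreement of the 4 KO cells held under the other 6 scalings, where 2 or 3 KO cells lay above all WT cells. The agreement depended on the scaling of the arrays: their SD was 0.57 without scaling and 0.76 with scaling on the spike-in controls. Of 7 smooth muscle markers, the 5 present ones were lower in KO by mean. For Acta2 (-0.22), Tagln (-0.16), Des (-0.77) and Cnn1 (-0.87) the difference was smaller than either spread between cells. Smtn differed by -2.67, with WT cell 1 and all KO cells at or near the floor, although its probe was well above background in all 8 cells. The summed signal of the 7, mostly from Acta2, lay between 96330 and 323137 per WT cell and between 61162 and 265434 per KO cell. The defining heavy chain Myh11 was detected in 0 of 8 cells. The part of these markers in the result was not tested.

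Myl2, the ventricular regulatory chain (chr5:122556732-122556791, mm9), gave 72438, 48062, 49365 and 26262 for WT cells 1 to 4, against 40677, 36347, 141681 and 86076 for KO. KO cells 3 and 4 were above all WT cells, whereas KO cells 1 and 2 were below 3 of them. Mean log2 signals were 15.49 ± 0.60 (WT) and 15.99 ± 0.93 (KO), a difference of 0.50 that was smaller than either spread. Relative to Myl2 in the same cell, Myl7 was higher in KO by 0.58 and Myl9 by 0.65, in both cases with overlapping genotypes.

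The direction held for Myl2, Myl3, Myl7, Myl9 and Myh7 under every other scaling, floor or average tried and with each cell left out in turn, whereas Myh6 and Myl4 changed sign under some of these. The size did not hold as well. Under scaling over all probes or quantile normalization no member passed 2-fold, and without WT cell 4 none did.

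**Figure D3:**
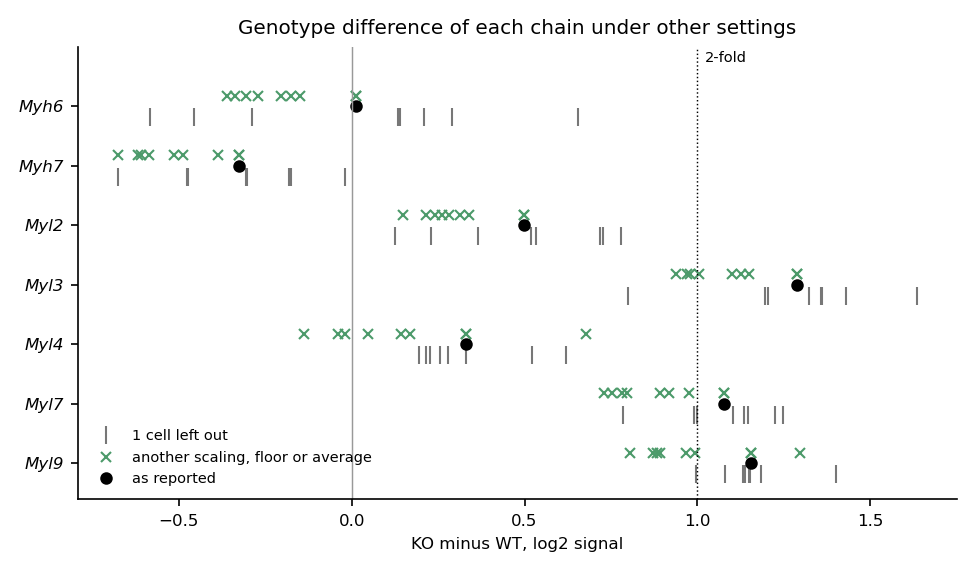
KO minus WT difference of each gene in log2 signal as reported (black), under another scaling, floor or average (green crosses) and with 1 cell left out (grey ticks), with lines at 0 and at 2-fold. Myl3, Myl7 and Myl9 stay between 0.73 and 1.64 and cross the 2-fold line, and Myh6 and Myl4 lie on both sides of 0.

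**Figure D4:**
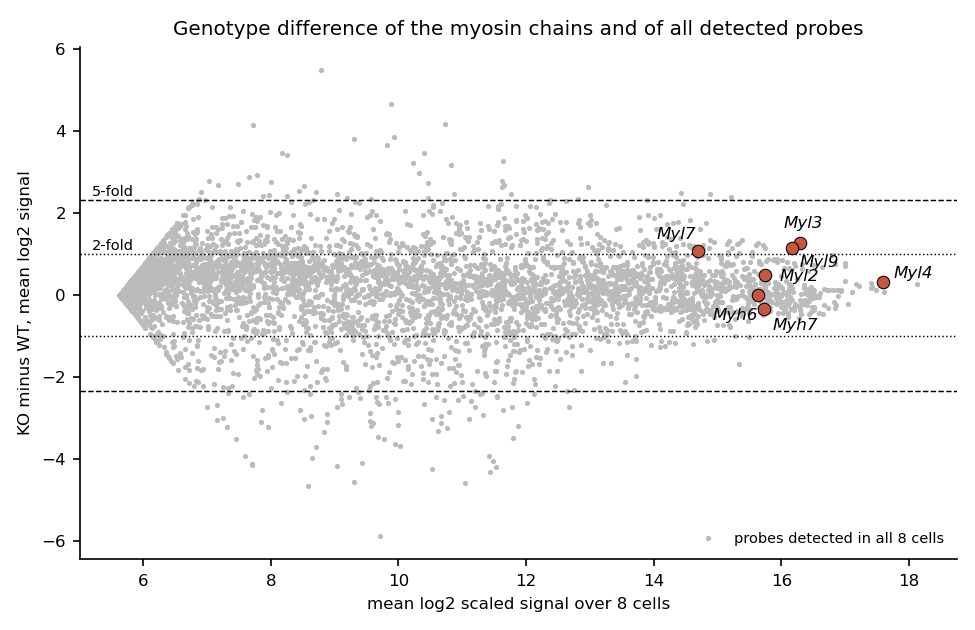
KO minus WT difference of mean log2 scaled signal against the mean over 8 cells, for the 5301 probes detected in all 8 cells (grey) and the 7 myosin chain probes (red), with lines at 2-fold and 5-fold. Myl3, Myl7 and Myl9 lie above the upper 2-fold line and no member reaches a 5-fold line.

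Cells of 1 genotype differed from each other about as much for the myosin chains as for other probes. The median SD within a genotype was 0.68 over the 7 members, 0.77 over the probes detected in all 8 cells and 0.74 over the brightest 531. Myh6 stood at the upper end, with an SD of 1.35 that exceeded 97.2% of the brightest 531, and Myl9 at the lower end, with 0.37 that exceeded 3.20%. Repeated spots of bright probes on 1 array had a median SD of 0.052 to 0.062, so the SD of each gene over the 8 cells was many times that of repeated spots. Within KO, Myl9 had an SD of 0.065 at the reported scaling, close to that of repeated spots. Repeated spots share 1 amplified cDNA, so they do not measure the spread that amplification adds between cells. No spot was saturated. Between 5 and 7 of the 7 member spots of each array were brighter than its highest spike-in control, so the linearity of the scale at these levels was not checked by the controls.

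**Figure D5:**
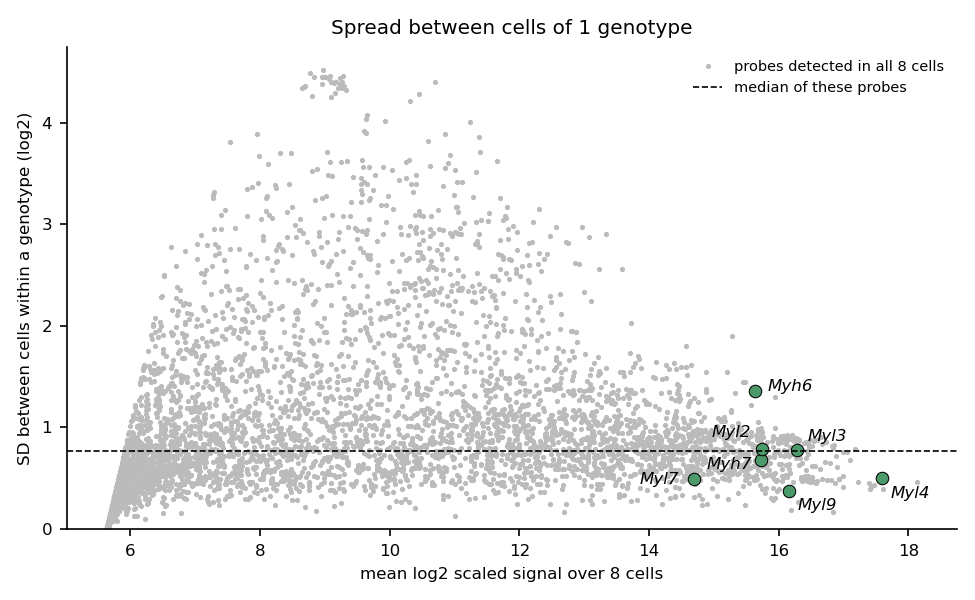
SD between cells within a genotype (pooled over WT and KO, log2) against mean log2 scaled signal, for the 5301 probes detected in all 8 cells (grey) and the 7 myosin chain probes (green), with the median SD of 0.77 as a dashed line. Myh6 lies high and Myl9 low among probes of like brightness.

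The likeness of the genes across the 8 cells varied from pair to pair. These correlations are descriptions over 8 cells that share an amplification and an array for all genes, with genotype and slide among what separates them. Myl3 and Myl7 had a Pearson's r of 0.91 and a Spearman's rho of 0.74, and r fell to 0.63 without the 2 cells farthest from the median of Myl3. Myl7 and Myl9 had an r of 0.84, which was 0.52 after the genotype means were taken out. Myh6 had an r of -0.80 with Myl2 and -0.66 with Myl4, the latter resting on the 2 farthest cells, without which it was 0.07. With Myl3 and Myl9 it had an r of -0.24 and -0.002. Myl2 had an r of 0.58 with Myl3 and 0.43 with Myl9, and both were -0.21 without the 2 cells farthest from the median of Myl2.

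The 3 genes most like each member were sought among 1222 genes with all 8 cells above background and over the floor of the scale. For Myl3 they were Vcan, the proteoglycan versican of the cardiac jelly, with r = 0.995, then Gm9693 and Olfr373. Vcan read 111 to 2982 across WT and 2606 to 6586 across KO, and its r was 0.99 within genotypes and without the 2 farthest cells. Each gene was picked by its r over these same 8 cells, so such further values are no separate check. With Myl3, 18 of the 1222 genes had an r above 0.9. For Myl7 they were Lasp1, an actin-binding LIM protein gene, Gm9693 and Cd4, with r from 0.93 to 0.94. For Myl9 they were Gins3, BC018473 and Hap1 with r from 0.91 to 0.92, which were 0.77, 0.65 and 0.50 after the genotype means were taken out. For the genes of Myl7 the values within genotypes were 0.81 to 0.85.

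The other 4 members led to further genes. Myh6 was followed most closely by U2af1, a splicing factor gene, with r = 0.97, and by Siglech and LOC102635467. Myl4 was followed by Atxn7l2, Zfp609 and Map3k13 with r from 0.95 to 0.97, and 37 of the 1222 genes had an r above 0.9 with it. Myl2 was followed by Gm5441, Prss53 and LOC100862444 with r of 0.93, and Myh7 by Synrg, Gigyf1 and Tas2r113 with r from 0.81 to 0.87 and no gene above 0.9. No member was among the 3 genes most like another member.

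The other myosin II chain genes were read in the same way. Of 19 genes, 6 were present by their brightest probe, 5 of them higher and 1 lower in KO by mean, with a median difference of 0.28, and 6 were detected in no cell. Myl12a, a nonmuscle regulatory chain, was the single one of the 6 past 2-fold, where 11.4% of present probes were, with a difference of 1.27, reading 9531, 2429, 7080 and 4088 for WT against 21155, 9089, 4913 and 23972 for KO, and the genotypes overlapped. Its neighbour Myl12b differed by 0.09, the nonmuscle and smooth muscle essential chain Myl6 by 0.02, Myh7b by 0.49 and Myh8 by 0.47. The 2 probes of Myl6, which the files place on chromosomes 10 and 14, followed each other with r = 0.998. The brighter one, on chromosome 10, had an r of 0.80 with Myl2 and -0.78 with Myh6. These were 0.64 and -0.40 without the 2 cells farthest from the median of Myl2 or of Myh6. Myl1 differed by -0.20 at a probe that the files place on chromosome 12 and by -0.96 at another, and its values are uncertain.

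Of 19 genes for thick filament partners and for the kinases, phosphatases and chaperones of myosin, 7 were present, 3 lower and 3 higher in KO by mean and 1, Mylk, at the floor in every cell, with a median difference of 0.00. Mybpc3, cardiac myosin-binding protein C, read 15464, 25538, 22808 and 21631 for WT against 38660, 20153, 6746 and 29966 for KO, a difference of -0.08. Smyd1, a muscle methyltransferase needed for myofibril assembly, differed by 1.61, with KO cell 2 at 432 between the WT cells. Ppp1cb, the catalytic subunit of myosin phosphatase, differed by 2.22, with WT cell 1 at the floor of 50, and Ppp1r12c, a regulatory subunit, by -1.62 with 2 WT and 3 KO cells at or near the floor. The myosin chaperone gene Unc45b differed by -0.96 and Mybpc1 by 0.47, both with cells at the floor.

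Of 9 chamber-associated genes, 2 were present. Nppa, the atrial natriuretic peptide gene, read 259325, 27538, 48205 and 13175 for WT against 91904, 92229, 73586 and 84201 for KO, a difference of 0.88 with WT cell 1 above all KO cells. Irx4, a ventricular homeobox gene, read 2125, 1675, 533 and 1544 for WT and 1575 for KO cell 1. The other 3 KO cells were at the floor, and the difference was -3.46. The Irx4 probe was well above background in 3 of the 4 KO cells, so a value at the floor does not mean absence. The size of this difference rests on the floor of 50. Of the present probes, 6.88% passed 5-fold towards lower signal in KO. The summed signal of the 9 genes lay between 15239 and 261800 per WT cell and between 73986 and 93829 per KO cell. Most of this sum was Nppa in every cell, so it adds little to the values of that gene. Over the 8 cells Nppa had an r of 0.81 with Myl3, and of 0.51 without the 2 cells farthest from the median of Myl3.

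The 250 bases before each transcript start were searched on both strands for motifs of muscle promoters, in RefSeq sequences of the GRCm38.p6 build that matched all 7 genes through 9 starts. The search was made after the signals had been seen. A CArG box, the site of serum response factor, was held by 3 genes, Myl3, Myl7 and Myl9. These were 3 of the 9 starts, beside 1.48% of 32536 promoters. Stretches of 100 bases around the box are shown, with the box in capitals. They are shown because these 3 members were 2-fold higher in KO at the reported scaling. Under the other scalings tried, Myl3 alone or no member passed 2-fold, and without WT cell 4 none did. The windows are chr9:110763548-110763647 on the plus strand for Myl3, chr11:5898789-5898888 on the minus strand for Myl7 and chr2:156775258-156775357 on the plus strand for Myl9.
Myl3: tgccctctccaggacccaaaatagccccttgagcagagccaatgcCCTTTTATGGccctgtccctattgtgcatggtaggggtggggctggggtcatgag
Myl7: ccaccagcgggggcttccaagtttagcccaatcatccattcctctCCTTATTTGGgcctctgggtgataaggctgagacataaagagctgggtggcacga
Myl9: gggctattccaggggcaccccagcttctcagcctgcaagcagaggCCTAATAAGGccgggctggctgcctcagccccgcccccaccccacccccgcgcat

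The box begins 85 bases before the start in Myl3, 61 in Myl7 and 161 in Myl9. Other genes with such a box were counted as well. Among genes detected in all 8 cells and with the members left out, 28 genes had a CArG box, with a median difference of 0.28 14.3% at least 2-fold higher and 14.3% at least 2-fold lower in KO, while 1525 genes had none, with a median of 0.15, 13.0% at least 2-fold higher and 12.4% at least 2-fold lower. Of the 28 genes, 0 had all KO cells above all WT cells, beside 48 of the 1525. Of the other motifs, CATTCC, bound by TEAD factors, was held by Myh6, Myh7, Myl3 and Myl7 (12.6% of promoters). AAGTG, a core bound by NKX2-5, was held by 5 members (40.6%), and the MEF2 site by none of the 7 (2.89%). The GATA factor motif AGATAA (9.97%) and the hexamer TATAAA (12.3%) were held by Myl2. This TATAAA stood 216 bases before a start of Myl2 and on the strand opposite to the transcript, so it is not read as a TATA box.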

How the data were processed

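Single-cell cDNA was amplified from its 3′ end, transcribed, labelled with Cy3 and hybridised to 1-colour arrays by the authors. Per the file headers, the deposited values were intensity values from Feature Extraction 12.0.2.2, with the processed signal already corrected for background, and probe positions were on mm9. The study's methods set values below 50 to 50 and scaled arrays to the 50th percentile.

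For the present values, control spots and outlier spots were removed, spots of 1 probe were averaged on the log2 scale, each array was shifted to a common 50th percentile over the 5301 probes detected on all 8 arrays (shifts of -0.76 to 0.68), and a floor of 50 was set. A gene was read at its brightest probe. Differences are KO minus WT means of log2 signal. The steps were tested on simulated data. No test was made, since each genotype was 1 sample of cells, whose number limits the precision. The 7 genes, the gene lists and the ratios were chosen with earlier results of these data known. Named genes were the members, the 3 most alike of each, and present genes of the lists. Of the genes searched for likeness, each had to exceed the floor in all cells. Alternatives were other scalings, floors and background corrections (limma 3.58.1 in R 4.3.3), all probes of a gene, and leaving out each cell. Figures were drawn with matplotlib 3.10.9.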

Additional observations from a re-analysis of the deposited data

How the results depend on the processing

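Each of the 7 differences, the 4 plotted ratios and the median over the members moved by less than 1 SD between cells under every alternative tried. Over all of them the difference ranged from -0.58 to 0.65 for Myh6, -0.68 to -0.02 for Myh7, 0.13 to 0.78 for Myl2, 0.80 to 1.64 for Myl3, -0.14 to 0.68 for Myl4, 0.73 to 1.25 for Myl7 and 0.80 to 1.40 for Myl9. The counts of members moved, and the cause was not tested. The count at least 2-fold higher in KO, 3 as reported, was 1 (Myl3) with 75th percentile scaling, without scaling or with scaling on the spike-in controls (chosen after seeing the data), and 0 with scaling over all probes, with quantile normalization or with normexp and quantile normalization. Leaving out single cells gave 0 to 3, with 0 without WT cell 4. The count with all KO cells above all WT cells, 2 as reported (a count added after seeing the data), was 1 (Myl3) with quantile normalization or with normexp and quantile normalization, and 0 with scaling over all probes, without scaling or with spike-in scaling. With 75th percentile scaling it was 2, but for Myl3 and Myl7, and Myl9 was separated at none of the 6 other scalings. Leaving out single cells gave 2 to 3.

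The median over the 5301 probes moved with the scaling too, from 0.00 to 0.41. Relative to it, Myl3 was higher in KO by 0.56 to 1.13, Myl7 by 0.37 to 0.92 and Myl9 by at least 0.47 under all 9 settings compared, whereas Myl2 lay between -0.17 and 0.35, Myl4 between -0.55 and 0.18, and Myh6 (-0.77 to -0.14) and Myh7 (-1.03 to -0.48) were lower in all 9. The 7 probes were above the floor in every cell.

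No paired analysis was possible because no result comes from a test and the cells of the genotypes share only a number.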
